A study of Mus musculus with 9 samples.

Results

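The genes for the proteins of the cytosolic ribosome were taken as all rows of the expression table whose symbol is Rpl, Rps or Rplp followed by a number and at most 1 closing letter (a, x, l or y). This gave 80 of 23951 gene symbols, 31 for the small and 49 for the large subunit. Kinases such as Rps6ka1 and pseudogenes lie outside the pattern. RNA was sequenced from mast cells that had been cultured from bone marrow of wild type C57BL/6 mice over 4 to 6 weeks with the cytokines IL-3 and SCF (each at 10 ng/ml). The labels give more than 95% of cells as positive for FcER1 and CD117. There were 3 libraries in each of 3 groups. The untreated cells received neither IgE nor antigen, the IgE cells received an 18 h exposure to DNP-specific IgE at 0.5 ug/ml, and the antigen cells received the same IgE and then, for 2 h, DNP-BSA at 50 ng/ml, which cross-links the bound IgE. No group received antigen without IgE. Whether the 3 libraries of a group came from separate cultures is not given in the labels, so all p-values measure the spread between these libraries, which may be technical.

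A ribosome is built from a small subunit, which decodes the mRNA, and a large subunit, which forms the peptide bond, and each subunit holds ribosomal RNA and 1 copy of nearly every ribosomal protein. Because the proteins are needed in equal numbers, their genes are usually expressed at high and balanced levels. Most ribosomal protein mRNAs begin with a C followed by a run of pyrimidines (the 5′ terminal oligopyrimidine, or TOP, motif), through which the kinase mTORC1 and the RNA-binding protein LARP1 control their translation and stability. Such control of translation is not measured by RNA abundance.

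The values were FPKM, fragment counts scaled by transcript length and library size, as the authors deposited them, so that levels of different genes are compared per length. The steps between low values gave estimated depths, in units of 1e6 reads, of 29.9 to 33.5 (untreated), 32.2 to 39.5 (IgE) and 20.9 to 28.5 (antigen). In antigen library 3 all 437 X-linked genes that had a value in the other 8 libraries were listed at 0, so Rpl10, Rpl36a, Rpl39 and Rps4x were used with n = 2 in the antigen group. In each group 1 library held most of the lowest values. Untreated library 1 was the lowest of its group in 61 of the 73 autosomal tested members, IgE library 3 in 62 and antigen library 3 in 59. The summed FPKM of 10 mast cell markers was 7479 to 8658 over the 9 libraries, but 2 of these markers, Cpa3 and Cma1, were listed at 0 in every library. Marker sums of several other cell types moved with the groups. The 9 erythroid markers found, 7 of them under 1 FPKM everywhere, summed to 17.9 to 21.1 FPKM in the untreated, 24.8 to 26.0 in the IgE and 30.6 to 31.9 in the antigen libraries. The 7 macrophage markers found, 4 of them under 1 FPKM everywhere, summed to 21.5 to 23.0, 26.1 to 26.7 and 38.2 to 39.0 FPKM. The 3 basophil markers, Mcpt8, Prss34 and Cd200r3, summed to 507 to 545, 423 to 477 and 553.5 to 574 FPKM, and the 4 megakaryocyte markers, with Ppbp at 0, to 434 to 439.7, 361 to 375 and 392 to 404 FPKM. The 6 T cell markers, all under 1 FPKM everywhere and Cd3e and Cd3g at 0, summed to 0.089 to 0.12, 0.087 to 0.13 and 0.22 to 0.61 FPKM. The 4 B cell markers, 3 under 1 FPKM everywhere and Ms4a1 at 0, summed to 2.29 to 2.54, 1.86 to 2.20 and 0.79 to 1.09 FPKM. Sums of 8 neutrophil markers, 1.71 to 1.95, 1.95 to 2.34 and 1.05 to 2.75 FPKM, overlapped between groups. Those of the 2 eosinophil markers found were 0.52 to 0.97, 0.37 to 0.66 and 0.23 to 0.35 FPKM. The part of these markers in the results was not tested.

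The start of a ribosomal protein mRNA is the sequence the TOP control acts on. It is shown here for a few members picked by hand, without Rpl9 and Rps9. They do not give the share of such starts over the family, which follows below the sequences. Each line gives 30 bases before and 20 bases from the annotated start, from RefSeq on build GRCm38.p6, read on the gene's strand. Capitals mark an unbroken run of at least 5 C or T that begins at the start.
Rps6 (chr4:86857348-86857397, minus strand): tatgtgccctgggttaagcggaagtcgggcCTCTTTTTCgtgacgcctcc
Rpl35 (chr2:39005112-39005161, minus strand): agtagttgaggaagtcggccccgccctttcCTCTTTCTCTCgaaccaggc
Rps15a (chr7:118116128-118116177, minus strand): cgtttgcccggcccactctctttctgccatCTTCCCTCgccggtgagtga
Rpl7a (chr2:26910777-26910826, plus strand): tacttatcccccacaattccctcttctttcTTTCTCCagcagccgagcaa
Rps27 (chr3:90213629-90213678, minus strand): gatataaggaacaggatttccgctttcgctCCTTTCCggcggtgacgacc
Rps2 (chr17:24720033-24720082, plus strand): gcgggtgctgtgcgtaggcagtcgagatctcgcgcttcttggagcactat
Rps27l (chr9:66946056-66946105, plus strand): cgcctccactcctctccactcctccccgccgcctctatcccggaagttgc
Rpl22 (chr4:152325696-152325745, plus strand): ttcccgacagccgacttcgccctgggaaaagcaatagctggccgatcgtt
Rps6, Rpl35, Rps15a, Rpl7a and Rps27 carried such a run, of 9, 11, 8, 7 and 7 bases, and in Rpl7a it began with T. Rps2, Rps27l and Rpl22 carried none at the start shown, which says only that these letters are not at that base. Rps27l and Rpl22 each have 2 annotated starts, of which only the first is shown. The counts that follow take a gene as having a feature when any of its starts has it. Of the 80 members 59 were found in the promoter table, 56 of them tested. A C followed by pyrimidines, in a run of at least 5 from the start, was present in 13 of these 56 (23.2%) and in 242 of 8246 tested genes (2.93%). A pyrimidine run of at least 7 within 10 bases of the start was found in 26 of 56 (46.4%), against 14.8% of tested genes. Within the 300 bases from 250 before to 50 after the start, on either strand and without removing overlaps between motifs, CCGGAA (the core bound by ETS factors such as GABP) was present in 31 members (55.4%) and 34.1% of tested genes. AAGATGG, a YY1 motif, was in 9 (16.1%) and 8.80%. GGGCGG, an Sp1 motif, was in 34 (60.7%) and 69.9%, and TATAAA in 6 (10.7%) and 8.17%. A match is a description of letters and not of a bound factor.

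Ribosomal protein genes were among the most abundant transcripts of these cells. Of the 80 members, 77 had at least 1 FPKM in at least 3 libraries and were tested, which were all 31 of the small and 46 of the large subunit. Of these 77, 71 had a mean above 50 FPKM, far over the filter. Their median level over all libraries was 759.7 FPKM, with quartiles of 468 and 992 FPKM. A mean of 1000 FPKM or more was reached by 19 members, 35 lay between 500 and 1000, 13 between 200 and 500, 4 between 50 and 200 and 6 between 1 and 50 FPKM. The remaining 3 were under 1 FPKM. The members without the 4 X-linked ones together held 10.8%, 10.7% and 10.9% of the summed autosomal FPKM in the untreated libraries, 11.4%, 11.2% and 10.7% in the IgE libraries and 11.98%, 11.6% and 11.1% in the antigen libraries. The shares of the IgE libraries overlapped both other groups, and those of the antigen libraries all lay above the untreated ones.

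The 5 highest members by mean FPKM were Rps26, Rps12, Rplp1, Rps24 and Rps9. Rps26, a small subunit protein at the mRNA exit site, measured 1900, 1986 and 2048 FPKM in the untreated, 2127, 2316 and 2165 FPKM in the IgE and 2676, 2452 and 2591 FPKM in the antigen libraries. The 3 antigen libraries were the highest and the 3 untreated ones the lowest, without overlap. Rps12 measured 1928, 2185 and 1970 FPKM in the untreated, 2140, 2185 and 1881 FPKM in the IgE and 2421, 2390 and 2164 FPKM in the antigen libraries, and Rps24 measured 1541, 1578 and 1637 FPKM in the untreated, 1743, 1581 and 1410 FPKM in the IgE and 1928, 1789 and 1730 FPKM in the antigen libraries. For both, the IgE values overlapped those of the untreated group. The stalk of the large subunit, which recruits elongation factors, is built from Rplp0 and dimers of Rplp1 and Rplp2, so that 2 of its 3 proteins are present in more than 1 copy. Over all 9 libraries Rplp1 averaged 1942, Rplp2 1063 and Rplp0 922 FPKM. Rps27a, made as a fusion with ubiquitin, averaged 468 FPKM, and the 5S RNA partners Rpl5 and Rpl11 359 and 992 FPKM. The level of Rpl11 was thus above that of Rpl5 in all 9 libraries, with a lowest value of 872.5 FPKM for Rpl11 and a highest of 415 FPKM for Rpl5.

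**Figure D1:**
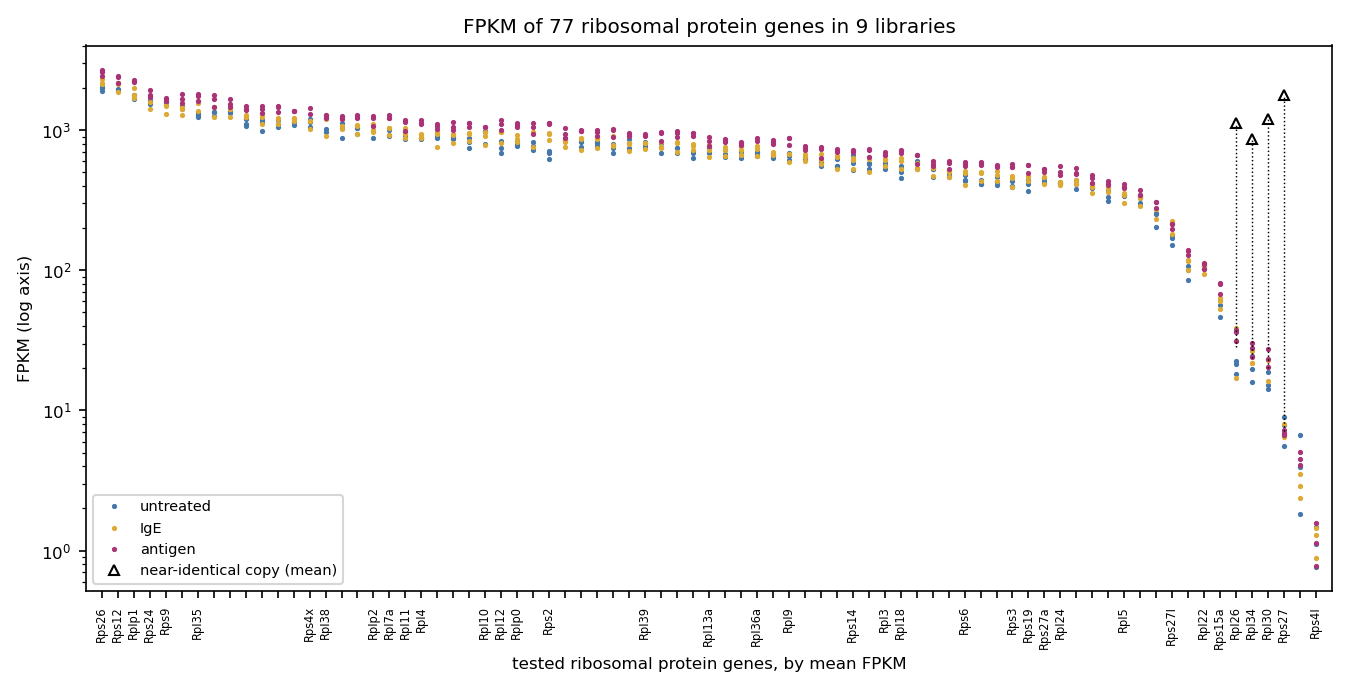
FPKM (log axis) of the 77 tested members in each library, coloured by group, ordered by mean, with symbols for members described in the text; open triangles give the mean of a near-identical copy that has its own row. Of the 80 members 67 have a mean of 200 FPKM or more, and Rpl26, Rpl34, Rpl30 and Rps27 sit far under their copies.

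Several members with low values had a near-identical copy with a high one. Coding sequences were available for 79 members in GENCODE M21, and 72 of them had at least 1 other transcript matching with at least 90% identity over at least 80% of the coding sequence. The median was 8 such copies per member and the most was 77, for Rpl21. Only 29 of the 957 copies had their gene symbol in the table, and 4 of these stood far above the member. Some of these symbols are genes of another name whose transcript holds the match, such as Dtnb, Med21 and Uimc1 on the other strand. Such rows are not values of the copy alone. Rps27 averaged 7.17 FPKM while Rps27rt, an intronless gene with 0 differences over the 255 coding bases, averaged 1793 FPKM. Rpl30 averaged 19.9 FPKM and its copy Gm12191 1198 FPKM at 99.71% identity. Rpl34 was at 23.6 FPKM and Rpl34-ps1 at 871 FPKM, with 99.44% identity, and Rpl26 at 28.2 FPKM and Gm15772 at 1130 FPKM, with 99.54%. Coding stretches of 2 of these pairs show how little separates them, from coding base 1 in the first and base 102 in the second pair, with a differing base in capitals.
Rps27: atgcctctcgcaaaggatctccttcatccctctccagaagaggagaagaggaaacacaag
Rps27rt: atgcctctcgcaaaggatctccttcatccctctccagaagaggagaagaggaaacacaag
Rpl34: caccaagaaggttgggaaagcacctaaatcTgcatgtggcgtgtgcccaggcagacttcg
Rpl34-ps1: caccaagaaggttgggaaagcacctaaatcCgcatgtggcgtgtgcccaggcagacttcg
The Rps27 pair shows no capital, and the Rpl34 pair shows 1 of the 2 differences over its 354 coding bases. How reads shared by such copies were assigned is not given in the sources used here, so the levels of these 4 members, and those of other members with copies, are uncertain. For Rpl41, at 3.87 FPKM, the only match with a row lay in a transcript of Gins1, at 5.23 FPKM. The X-linked gene Rps4x averaged 1188 FPKM, with no antigen 3 value, while Rps4l lay at 1.16 FPKM.

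Ribosomal protein genes were higher with antigen than with IgE, together and by a small amount, on the deposited values. This did not hold under quantile normalization, or after rescaling to a common autosomal total without short RNAs and 3 genes with zeros. Quantile normalization gives every library the same set of values, so it can remove part of a shift shared by genes that fill the top ranks. At a mean of 1000 FPKM or more, the tested genes were 19 members and 37 others. The family median was 721.5, 769.8 and 669.4 FPKM in the IgE libraries and 874.1, 854.3 and 796.7 FPKM in the antigen libraries, against 631.1, 692.5 and 689.6 FPKM in the untreated ones. All 3 antigen libraries were thus above the other 6, and IgE 3 lay inside the untreated range. On the deposited values, 56 of 77 rose and 0 fell between antigen and IgE at a limma adjusted p under 0.05, where 37.6% of all 10890 tested genes rose and 36.2% fell. Under quantile normalization of the same libraries the family split was 1 risen and 9 fallen, where 30.6% of all tested genes rose and 42.75% fell. After rescaling all libraries to the same total it was 9 and 1 (all genes 24.7% and 47.7%). After rescaling to the same total of autosomal genes without short RNAs and 3 genes with zeros it was 1 and 2 (22.0% and 54.4%). On the deposited values the members' median log2 change was 0.24, a median fold of 1.18, and the middle quartiles ran from 0.20 to 0.28. Over all tested genes the median was 0.0071 and the width between quartiles was 0.64, against 0.075 for the members. Called were 23 of 31 small subunit genes (median 0.23) and 33 of 46 large subunit genes (median 0.25), and the subunits were not tested against each other. The libraries of both groups did not overlap in 56 members, all higher with antigen, where 38.3% of all tested genes were higher and 37% lower in this way, and 21 members overlapped. Bulk FPKM cannot tell more RNA per cell from a changed mix of cells.

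**Figure D2:**
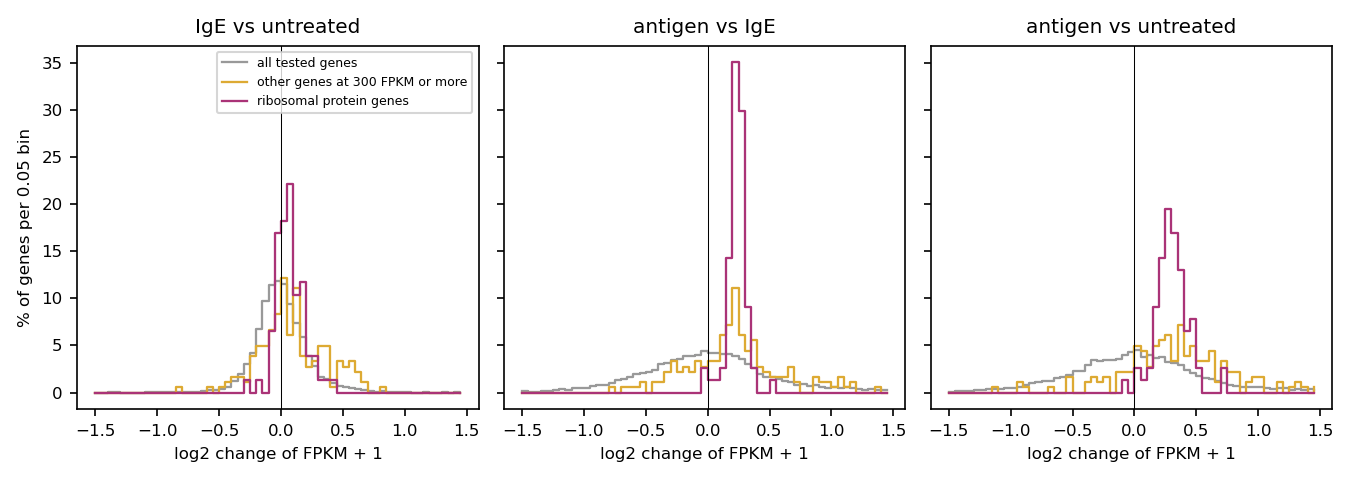
Share of genes per 0.05 bin of log2 change (deposited FPKM + 1) in the 3 comparisons, for all tested genes, other genes at 300 FPKM or more, and ribosomal protein genes. In antigen versus IgE the members form a narrow peak around 0.24, a position that falls to -0.033 under quantile normalization.

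Other abundant genes showed a like median with a far wider spread. Among the 144 other genes with a mean of 300 to 1000 FPKM the median log2 change from IgE to antigen was 0.21, with quartiles of -0.0038 and 0.49, and 57.6% were called higher. The 47 members at that level had a median of 0.25, with quartiles of 0.22 and 0.28, and 85.1% of them were called higher. At 1000 FPKM or more, 37 other genes had a median of 0.23 and quartiles of 0.094 and 0.39, with 59.5% called higher, and the 19 members a median of 0.21 with quartiles of 0.19 and 0.28, with 73.7% called higher. At both levels the members' median lay within the quartiles of the other genes, their spread was narrower and a larger share of them was called. No test of these groups against each other was made.

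The 6 largest called rises without overlap between antigen and IgE were Rpl9, Rps15a, Rps3, Rplp0, Rpl7a and Rpl4. Rpl9, a large subunit protein, measured 615, 691 and 653 FPKM in the untreated, 677, 677 and 589.5 FPKM in the IgE and 874, 879.6 and 789.5 FPKM in the antigen libraries. The antigen libraries stood above all others, and the lowest value was that of IgE 3 (log2 change 0.39, SE 0.074, adjusted p = 0.000742). Rpl9 was the only member called higher under each of the 6 scalings. Rps15a, a small subunit protein, measured 46.5, 61.04 and 56.8 FPKM in the untreated, 63.2, 60.8 and 52.9 FPKM in the IgE and 81.7, 80.2 and 67.6 FPKM in the antigen libraries, with all antigen values above all IgE values (log2 change 0.37, SE 0.11, adjusted p = 0.00955). Rps3, which lies at the mRNA entry site and also acts in DNA repair, measured 396, 399 and 432 FPKM in the untreated, 452, 473 and 394 FPKM in the IgE and 572, 546 and 551 FPKM in the antigen libraries. Antigen exceeded the other 6 libraries throughout (log2 change 0.34, SE 0.069, adjusted p = 0.00111). The stalk base Rplp0 rose from 874 ± 51.2 to 1091 ± 41.02 FPKM (SD, n = 3), Rpl7a from 996 ± 62.3 to 1243 ± 30.02 and Rpl4 from 915 ± 32.3 to 1136 ± 44.2. Their log2 changes were 0.32, 0.32 and 0.31, and each was called under 4 of the 6 scalings, as were Rps15a and Rps3. Under quantile normalization Rps3 turned to -0.0061.

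Members with roles outside or at the edge of the ribosome core were followed by name. Rps6, the substrate of the S6 kinases downstream of mTORC1, measured 436, 442 and 479.8 FPKM in the untreated, 509, 491 and 407 FPKM in the IgE and 593, 578 and 559 FPKM in the antigen libraries, and the antigen libraries were the 3 highest (log2 change 0.30, SE 0.080, adjusted p = 0.00573). The 5S partners, which also bind Mdm2 when ribosome assembly fails, changed by 0.26 (Rpl5, adjusted p = 0.00313) and 0.22 (Rpl11, adjusted p = 0.0403). Rpl11 overlapped between the groups and Rpl5 did not. Rpl5 was called higher on the deposited values but lower under quantile normalization. The stalk genes Rplp1 and Rplp2 changed by 0.29 (adjusted p = 0.00438) and 0.20 (adjusted p = 0.0647), so only the first passed the test. Rps14 and Rps19, small subunit genes known from human bone marrow failure syndromes, changed by 0.28 and 0.24 (adjusted p = 0.0196 and 0.0172). Rpl3 near the peptidyl transferase centre changed by 0.19 (adjusted p = 0.0173), Rpl13a by 0.22 (adjusted p = 0.0274) and Rpl24 at the subunit interface by 0.29 (adjusted p = 0.000828). Rpl38, known for effects on selected mRNAs in the embryo, changed by 0.17 and did not pass (adjusted p = 0.239). The ubiquitin fusion Rps27a rose by 0.23 (adjusted p = 0.00582), but was called lower under quantile normalization.

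Among the 5 most abundant members, Rps26 (0.22), Rplp1 (0.29), Rps9 (0.21) and Rps24 (0.21) were called higher and Rps12 (0.17, adjusted p = 0.0978) was not. The X-linked members were compared over 2 antigen and 3 IgE libraries. Rps4x measured 1056, 1194 and 1153 FPKM in the untreated, 1162, 1163 and 1021 FPKM in the IgE and 1439 and 1315 FPKM in the antigen libraries (1 and 2), with both antigen values the highest (log2 change 0.30, SE 0.088, adjusted p = 0.0106). Rpl36a and Rpl39 also rose, by 0.27 and 0.24 (adjusted p = 0.0100 and 0.00948). Rpl10, which joins the large subunit late in its maturation, measured 799.8, 971 and 988 FPKM in the untreated, 976, 916 and 787 FPKM in the IgE and 1048 and 1061 FPKM in the antigen libraries (1 and 2). Both antigen values were the highest, but the difference did not pass (log2 change 0.25, adjusted p = 0.0755).

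**Figure D3:**
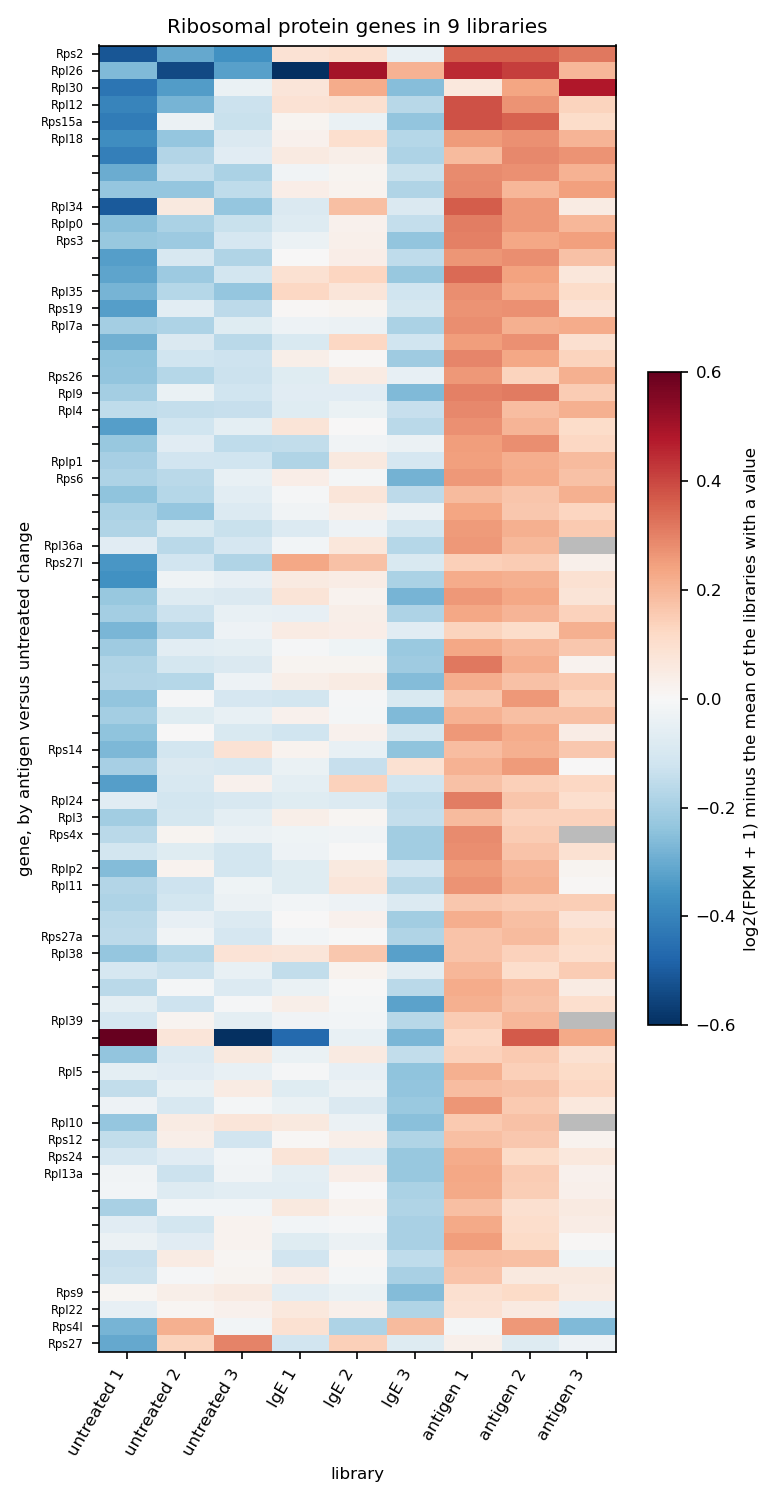
Log2(FPKM + 1) of the 77 tested members in each library, minus the member's mean over the libraries with a value, colour clipped at 0.6 and grey where antigen 3 has no X-linked value; symbols are given for members described in the text. The antigen columns are mostly red on the deposited scale, a direction of the family median that quantile normalization turns, and untreated 1, IgE 3 and antigen 3 are paler or bluer than the rest of their groups.

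Between antigen and IgE the number of called members moved more with the scaling than with single libraries. Leaving out single libraries gave 34 to 61 members called higher and 0 lower between antigen and IgE, with 34 without antigen 1 and 37 without antigen 2, against 56 with all libraries. Of all tested genes 35.3% to 38.1% were higher and 34.0% to 37.6% lower in these settings. The mean summed FPKM of a library was 494821 in the untreated, 504399 in the IgE and 568227 in the antigen group, so any scaling to a common total lowers the antigen values. Rescaling to the same total moved the median change of all tested genes between antigen and IgE to -0.16, and the members' median to 0.066, which is 0.22 above it. The second total, without short RNAs, sex-linked genes and 3 genes with zeros in some libraries (Eef1a1, Ftl1 and Cdk8), moved these medians to -0.21 and -0.0056, a gap of 0.20. As deposited the gap was 0.24, and after quantile normalization 0.043. Of all calls between antigen and IgE, 51.0% were rises as deposited, 34.1% after rescaling to the same total and 28.8% with the second total. Between antigen and untreated the members' median was 0.30 as deposited, 0.099 after rescaling to the same total (all genes -0.17), 0.0031 with the second total (all genes -0.25) and -0.055 after quantile normalization. The shares of rises among all calls were 52.1%, 34.1%, 27.1% and 43.1%. Which of these scalings fits the RNA content of the cells was not tested.

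**Figure D4:**
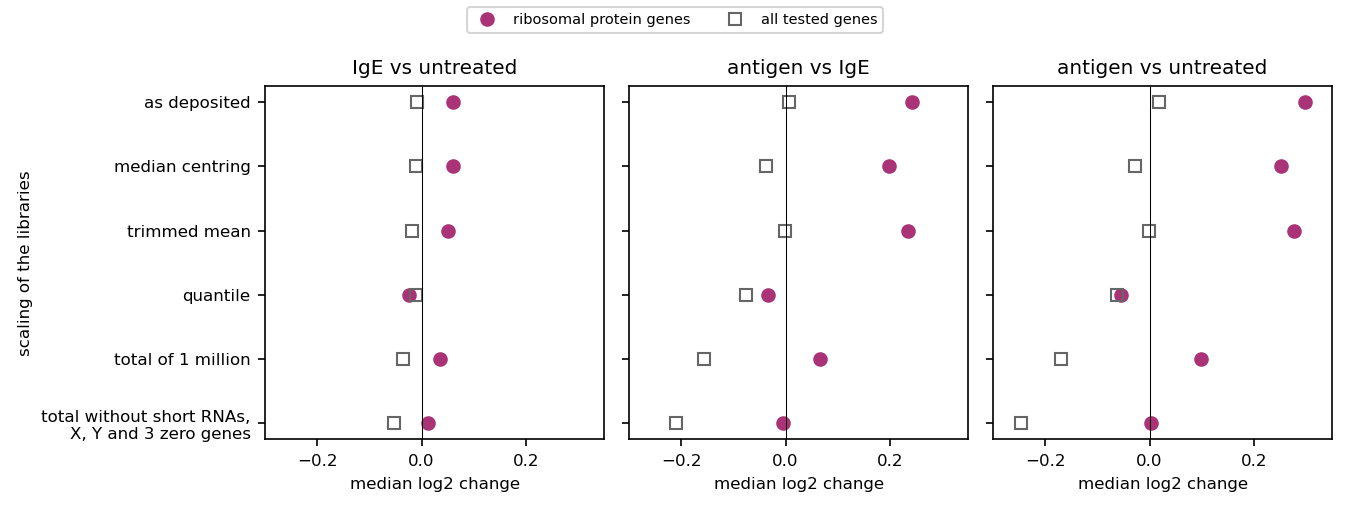
Median log2 change of the 77 members (filled circles) and of all tested genes (open squares) under 6 scalings of the libraries, in the 3 comparisons. The members lie 0.20 to 0.24 above all genes from IgE to antigen except under quantile normalization, where the gap is 0.043 and the members' median falls under 0.

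Few ribosomal protein genes changed with IgE alone. Rps2, Rps27l and Rpl35 rose and 0 fell of 77, where 15.9% of all tested genes rose and 14.2% fell. Over other scalings the split was 4 and 9 under quantile normalization, 6 and 1 after rescaling to the same total, and 4 and 1 with the second total, which moved the share of rises among all calls from 52.8% to 37.0%. In these settings 15.5%, 11.6% and 11.9% of all tested genes rose, and 15.95%, 12.02% and 20.3% fell. The members' median log2 change was 0.061 as deposited and -0.025 under quantile normalization, and quartiles of the former were -0.011 and 0.13. Groups did not overlap in 6 members that were higher (21.3% of all tested genes) and 1 that was lower (21.8%), the latter being Rps9. Rps2, a small subunit protein at the mRNA entry channel, measured 618, 714 and 687 FPKM in the untreated, 937, 948 and 857 FPKM in the IgE and 1134, 1134 and 1101 FPKM in the antigen libraries. The 3 groups did not overlap, and the step from untreated to IgE was a 1.36-fold rise (log2 change 0.44, SE 0.066, adjusted p = 0.00101). Rps27l, a paralog of Rps27 known as a p53 target, measured 150.5, 178 and 169.6 FPKM in the untreated, 226, 217 and 180.2 FPKM in the IgE and 212, 214 and 197 FPKM in the antigen libraries. All IgE values lay above the untreated ones, with IgE 3 the lowest of its group (log2 change 0.32, SE 0.088, adjusted p = 0.0203). Rpl35 at the peptide exit measured 1234, 1328 and 1275 FPKM in the untreated, 1629, 1572 and 1376 FPKM in the IgE and 1817, 1744 and 1614 FPKM in the antigen libraries, again without overlap of IgE and untreated (log2 change 0.25, SE 0.079, adjusted p = 0.0364). These 3 were called higher under all 6 scalings.

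That count rested on single libraries. Without IgE 3, the lowest library of its group for most members, 18 members were called higher after IgE (23.4% of 77), in a setting where 20.3% of all tested genes were. Without untreated 1 or without IgE 2, only Rps2 was called, and without IgE 1 only Rps2 and Rpl26. Leaving out untreated 3 gave 5 higher and 1 lower, the latter Rpl41. With all libraries, the log2 changes of the other named members were 0.15 for Rps26, 0.028 for Rps12, 0.071 for Rplp1, -0.011 for Rps24, 0.13 for Rplp0 and 0.074 for Rplp2. They were 0.044 for Rps6, 0.10 for Rps3, -0.043 for Rpl5, 0.053 for Rpl11, 0.0083 for Rps14, 0.16 for Rps19 and 0.026 for Rps27a. Rpl3, Rpl13a, Rpl22, Rpl24 and Rpl38 changed by 0.091, -0.024, -0.026, -0.012 and 0.075. The X-linked Rpl10, Rpl36a, Rpl39 and Rps4x, all with 3 libraries in both groups, changed by -0.041, 0.072, -0.020 and -0.026. None of these passed the test, and Rps9 (-0.15, adjusted p = 0.123) did not either on the deposited scale.

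Between antigen and untreated, which shares its libraries with the other comparisons, 64 of 77 members rose and 0 fell on the deposited values, where 38.7% of all tested genes rose and 35.6% fell. Under quantile normalization 3 rose and 17 fell, after rescaling to the same total 29 and 2, and with the second total 9 and 6. Of all tested genes 31.3% rose and 41.3% fell under quantile normalization. The shares were 25.2% and 48.7% after rescaling to the same total, and 21.2% and 57.1% with the second total. The members' median fold was 1.23 as deposited. Groups did not overlap in 67 members, all higher with antigen, where 41.5% of all tested genes were higher and 38% lower in this way, and 24 of 31 small and 40 of 46 large subunit genes were called. The 6 largest called rises without overlap were Rps2, Rpl26, Rpl30, Rpl12, Rps15a and Rpl18. Rps2 rose 1.67-fold (log2 change 0.74, SE 0.066, adjusted p = 2.46e-06) and was the only member called higher under all 6 scalings. Rpl12, which sits beside the stalk, measured 693, 753 and 834 FPKM in the untreated, 970, 976 and 814 FPKM in the IgE and 1191, 1099 and 1001 FPKM in the antigen libraries (log2 change 0.53, SE 0.10, adjusted p = 0.000544). The untreated values were the 3 lowest but for IgE 3, which lay under untreated 3. Rpl18 measured 459, 505 and 559.9 FPKM in the untreated, 606, 638 and 528 FPKM in the IgE and 709.9, 719 and 685 FPKM in the antigen libraries (log2 change 0.47, SE 0.084, adjusted p = 0.000444), with IgE 3 again inside the untreated range. Rps15a rose by 0.48 (adjusted p = 0.00205).

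Rpl26 and Rpl30 were members whose abundant copies had rows of their own, and member and copy did not give the same picture. Rpl26 measured 22.4, 18.3 and 21.4 FPKM in the untreated, 16.98, 38.7 and 31.4 FPKM in the IgE and 37.3, 36.5 and 31.3 FPKM in the antigen libraries, with a fold of 1.69 from untreated to antigen (log2 change 0.73, SE 0.23, adjusted p = 0.0143). IgE 1 was the lowest and IgE 2 the highest of the 9 libraries. Its copy Gm15772 went from 1063 ± 58.1 to 1255 ± 140 FPKM (SD, n = 3, log2 change 0.24, adjusted p = 0.0590). Rpl30 measured 14.1, 15.3 and 18.9 FPKM in the untreated, 20.6, 22.9 and 16.2 FPKM in the IgE and 20.4, 23.2 and 27.6 FPKM in the antigen libraries, all antigen values above the untreated ones (log2 change 0.53, SE 0.14, adjusted p = 0.00635), while Gm12191 went from 1165 ± 39.5 to 1281 ± 74.2 FPKM (log2 change 0.14, adjusted p = 0.149). Rpl34-ps1 rose by 0.20 (adjusted p = 0.0271) from untreated to antigen, and Rpl34 by 0.45 (adjusted p = 0.0113). Rps27rt fell from 1828 ± 19.98 to 1560 ± 52.3 FPKM with IgE (log2 change -0.23, adjusted p = 0.0143) and rose to 1992 ± 22.7 FPKM with antigen (0.35, adjusted p = 0.000262). The fall was called under all 6 scalings and the rise under 5. Rps27 itself, at 5.55 to 8.98 FPKM, changed by -0.056 and -0.012 in these steps and passed neither test (adjusted p = 0.780 and 0.941). Without untreated 1 it was called lower between antigen and untreated, the only member to be so.

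In the same comparison the most abundant members Rps26, Rplp1 and the stalk genes Rplp0 and Rplp2 rose by 0.38, 0.36, 0.45 and 0.27, and Rps12 (0.20, adjusted p = 0.0588), Rps24 (0.20, adjusted p = 0.0561) and Rps9 (0.054, adjusted p = 0.504) did not pass. Rps6, Rps3, Rps14, Rps19 and Rps27a of the small subunit rose by 0.35, 0.44, 0.28, 0.40 and 0.25. Rpl5, Rpl11, Rpl3, Rpl13a and Rpl24 of the large subunit rose by 0.21, 0.27, 0.28, 0.19 and 0.28. Rpl38 changed by 0.24 without passing (adjusted p = 0.0960). With n = 2 in the antigen group, Rpl36a, Rpl39 and Rps4x rose by 0.34, 0.22 and 0.28, and Rpl10 changed by 0.20 (adjusted p = 0.129). Of these, Rpl5, Rpl3, Rpl13a, Rps27a and Rpl39 were called lower under quantile normalization.

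A few members were called as moving against the rest of the family. To see this, each library was centred on the median of its autosomal tested members, which removes any scaling that multiplies a whole library, and limma was run again on all genes. Relative to the family, 1 member was higher and 2 were lower between antigen and IgE (19.1% and 50.4% of all tested genes), 2 and 1 between IgE and untreated (4.98% and 13.6%), and 4 and 8 between antigen and untreated (16.7% and 57.8%). P-values were adjusted over all tested genes, of which many were called, and not over the members alone. Some of these few member calls may therefore be false. Rps2 stood out with IgE. Its log2 distance from the family median was -0.029, 0.044 and -0.0061 in the untreated, 0.38, 0.30 and 0.36 in the IgE and 0.38, 0.41 and 0.47 in the antigen libraries. The distance grew by 0.34 from untreated to IgE (adjusted p = 0.00124) and by 0.41 from untreated to antigen (adjusted p = 1.05e-05). Rps27l was nearer to the family median in the IgE group than in the other groups, with distances of -2.06, -1.96 and -2.02 in the untreated, -1.67, -1.82 and -1.89 in the IgE and -2.04, -1.99 and -2.01 in the antigen libraries. IgE thus moved it by 0.22 (adjusted p = 0.0288) and antigen by -0.22 (adjusted p = 0.00654), to distances within the untreated range.

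Rps9, a small subunit protein important for decoding accuracy, went the other way from Rps2. Its FPKM was 1572, 1602 and 1619 FPKM in the untreated, 1496, 1519 and 1304 FPKM in the IgE and 1669, 1690 and 1616 FPKM in the antigen libraries, and its distance above the family median was 1.31, 1.21 and 1.23 in the untreated, 1.05, 0.98 and 0.96 in the IgE and 0.93, 0.98 and 1.02 in the antigen libraries. All 6 libraries with IgE lay under the 3 untreated ones, by -0.25 for IgE (adjusted p = 0.00934) and -0.27 for antigen (adjusted p = 0.000721). Rpl22, a large subunit protein that mice can live without and whose paralog is Rpl22l1, measured 102, 107 and 108 FPKM in the untreated, 111, 108 and 93.5 FPKM in the IgE and 113, 110.1 and 102 FPKM in the antigen libraries, with all groups overlapping in FPKM. Relative to the family it was lower with antigen than with IgE by -0.17 (adjusted p = 0.0200) and than untreated by -0.29 (adjusted p = 0.000383), without overlap. Rpl9 alone rose relative to the family from IgE to antigen, by 0.16 (adjusted p = 0.0168). From untreated to antigen the relative changes that passed included 0.20 for Rpl12 and 0.15 for Rpl18, and falls of Rps27 (-0.39), Rpl6 (-0.19), Rps21 (-0.19), Rpl23a (-0.15) and Rpl21 (-0.14). The fall of Rps27 is uncertain. Its values were 5.55 to 8.98 FPKM, where the added 1 FPKM understates a rise, and it shares reads with an abundant copy. With IgE 3 and antigen 3 both left out, the 3 calls between antigen and IgE and those of Rps2, Rps27l and Rps9 after IgE remained. In that setting 6 members were higher and 3 lower after IgE, among them Rpl12, Rpl30 and Rpl35 as higher and Rps21 as lower, and Rpl18 and Rpl23a were among those that lost their calls between antigen and untreated. Rpl6, Rps21, Rpl23a and Rpl21 are named here after their values were seen.

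**Figure D5:**
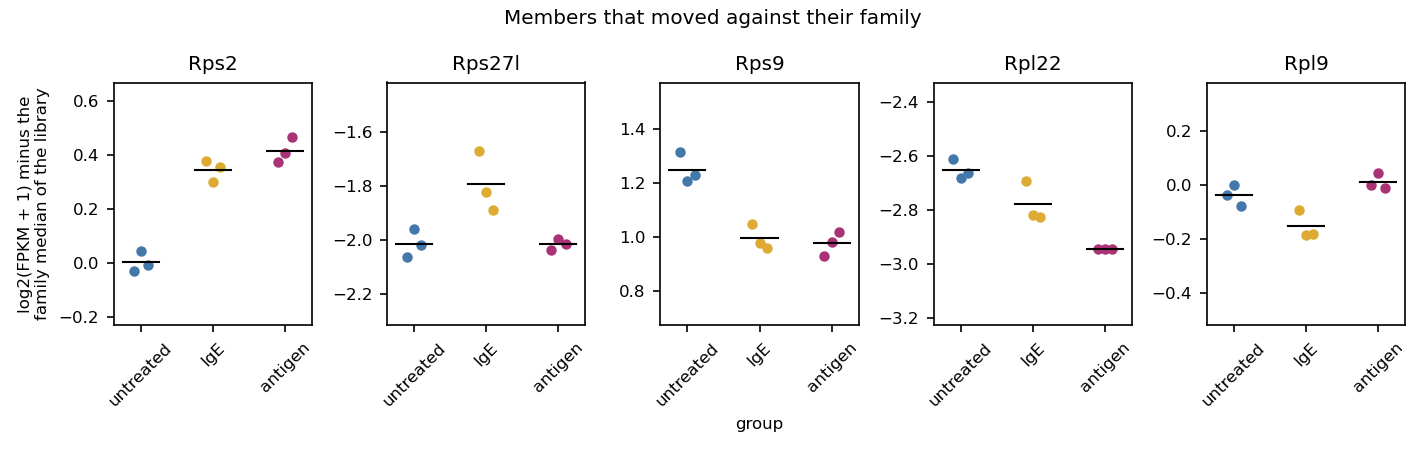
Log2(FPKM + 1) minus the family median of the same library, for 5 members in the 9 libraries, with group means as bars; each panel spans 0.9 on the vertical axis. Rps2 is higher and Rps9 lower in all 6 libraries with IgE, Rps27l is higher in the IgE group only, Rpl22 is lowest with antigen, and Rpl9 is lowest with IgE. Scalings that multiply a whole library do not change these distances except through the added 1 FPKM. Quantile normalization is not such a scaling.

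The paralogs of restricted expression were nearly silent. Rpl10l, a retrocopy of Rpl10 used in male germ cells, was listed at 0 in all 9 libraries. Rpl3l, the muscle paralog of Rpl3, was at 0 to 0.167 FPKM and Rpl39l, a paralog of Rpl39 known from testis, at 0 to 0.0674 FPKM, so neither was tested. Rps4l was at 0.767 to 1.57 FPKM, with log2 changes of -0.037, 0.059 and 0.022 for antigen versus IgE, IgE versus untreated and antigen versus untreated, and passed no test (adjusted p = 0.840, 0.806 and 0.907). Rps27l, at 150.5 to 226 FPKM, was the only member with a closing l in its symbol that was expressed well above 1 FPKM.

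Ribosomal proteins whose symbols lie outside the pattern also rose with antigen on the deposited values. Of 9 tested, 9 rose between antigen and IgE as deposited, and 1 to 9 over the 6 scalings with 0 falling. Their median log2 change was 0.28 (0.0080 to 0.28 over the scalings), against 0.0071 for all tested genes. Of all tested genes 37.6% rose and 36.2% fell as deposited, and 22.0% to 37.6% rose and 36.2% to 54.4% fell over the scalings, which is the background of the antigen versus IgE counts of every gene list. For IgE versus untreated these shares were 15.9% and 14.2% as deposited, and 11.6% to 15.9% and 12.02% to 20.3% over the scalings. The largest change among the 9 was that of Rpl7l1, a paralog of Rpl7, at 40.6 ± 1.86 and 55.6 ± 1.62 FPKM (log2 change 0.45, adjusted p = 3.6e-06), called under all 6 scalings. Rpl22l1, the paralog of Rpl22, rose from 41.1 ± 7.37 to 54.5 ± 2.67 FPKM (0.41, adjusted p = 0.0143). Others changed by 0.31 (Gnb2l1, the scaffold Rack1), 0.28 (Fau), 0.27 (Rpl36al), 0.23 (Rpsa), 0.22 (Rps3a1) and 0.35 (Rps27rt). Rps27rt, counted among the 9, is identical to the member Rps27 over the coding bases. How their shared reads were assigned is not given. Between IgE and untreated, Rpsa rose by 0.25 (adjusted p = 0.0218) and Rps27rt fell, and the other 7 did not pass. From untreated to antigen 8 of 9 rose as deposited and 2 to 8 over the scalings, with 0 to 2 falling. Of all tested genes 21.2% to 38.7% rose and 35.6% to 57.1% fell in that comparison over the scalings. Rpsa rose there by 0.47, Rpl22l1 by 0.73, Rpl7l1 by 0.50, Gnb2l1 by 0.43, Rpl36al by 0.36, Rps3a1 by 0.24 and Fau by 0.24.

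Single translation factors changed by more than any member between antigen and IgE. Of 11 elongation and release factors 7 rose and 2 fell between antigen and IgE, and over the 6 scalings 3 to 7 rose and 2 to 3 fell, with a median of 0.24 as deposited, where 37.6% of all tested genes rose and 36.2% fell. Eif5a, which relieves stalled peptide bond formation, was at 239 ± 5.85, 315 ± 3.85 and 466 ± 13.1 FPKM (SD, n = 3) in untreated, IgE and antigen libraries, and its rises of 0.39 with IgE and 0.56 with antigen were called under all 6 scalings. Etf1, the release factor that reads stop codons, rose from 49.5 ± 3.39 to 107 ± 1.29 FPKM with antigen, and Eef2k, the kinase that inhibits elongation factor Eef2, fell from 62.7 ± 1.97 to 37.99 ± 0.591, both under all 6 scalings. Eef1g rose with IgE by 0.32. Eef1e1, counted here by its symbol though it is not itself an elongation factor, rose with IgE by 0.37. Eef1a1 was left out because it was listed at 0 in all 3 IgE libraries. Of 40 initiation factors 29 rose and 1 fell between antigen and IgE (14 to 29 and 1 to 7 over the scalings, median 0.26, all genes 37.6% and 36.2%), with the smallest adjusted p for Eif3c, Eif2s2 and Eif6, at 1.94-, 1.86- and 1.99-fold. With IgE alone 14 rose and 2 fell as deposited, and 6 to 14 rose and 2 to 5 fell over the scalings, where 15.9% of all tested genes rose and 14.2% fell as deposited. The smallest adjusted p were those of Eif1ax (0.30), Eif4e (0.35) and Eif2s2 (0.25).

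Of 29 tested genes of the mTORC1 arm, 12 rose and 8 fell between antigen and IgE, and 11 to 13 rose and 8 to 13 fell over the scalings. As deposited these are shares near those of all tested genes, 37.6% and 36.2%, so the counts are no result about this arm. Their median was 0.042 as deposited and -0.18 to 0.042 over the scalings. Rps6ka2, a kinase of the RSK family, rose from 23.4 ± 0.758 to 113 ± 1.18 FPKM. It was counted in this list, although RSK kinases are not the S6 kinases that mTORC1 activates. Eif4ebp1, the translation repressor that mTORC1 inactivates, rose from 51.7 ± 0.631 to 209 ± 5.01 FPKM. Sesn3, a sestrin that restrains mTORC1, fell from 10.8 ± 0.633 to 2.78 ± 0.348 FPKM. Each of these 3 was called in its direction under all 6 scalings. With IgE alone 3 rose and 2 fell of the 29 (2 to 3 in either direction over the scalings, all genes 15.9% and 14.2% as deposited), among them Eif4ebp1 (0.35), Sesn1 (-0.29) and Tsc1 (-0.20). From untreated to antigen Rheb, the GTPase that activates mTORC1, went from 31.1 ± 2.28 to 79.5 ± 0.613 FPKM (2.56-fold). Of 14 snoRNA host genes and other TOP mRNAs, 10 rose and 0 fell between antigen and IgE, and 4 to 10 rose and 0 to 2 fell over the scalings, with a median of 0.27 as deposited, where 37.6% of all tested genes rose and 36.2% fell. Vim, Gas5 and Btf3 changed 2.05-, 1.39- and 1.32-fold. With IgE alone 5 of the 14 rose and 0 fell as deposited (3 to 5 and 0 over the scalings, all genes 15.9% and 14.2%), with the smallest adjusted p for Vim (0.31), Snhg1 (0.22) and Gas5 (0.18).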

How the data were processed

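The submitters' processing notes name TopHat2 (2.0.12), Bowtie (0.12.7) and the mouse build mm9 for the 9 RNA libraries. The authors deposited FPKM per gene symbol. No FPKM program, annotation, strand setting or treatment of shared reads is stated (not given in the sources used here). Members and gene lists were chosen with earlier results of these data known.

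The 10890 genes that reached 1 FPKM in 3 or more libraries were tested with limma 3.58.1 (R 4.3.3, trend) on log2(FPKM + 1), a scale that understates changes of low genes, over all 9 libraries without covariates. P-values are two-sided, adjusted by Benjamini-Hochberg over all tested genes of a comparison, and called under 0.05. Plain folds are ratios of group means. The X- and Y-linked zeros of antigen 3 were treated as missing, with chromosomes from the RefSeq table of GRCm38.p6 (145 symbols unmatched). The fit was tested on simulated data. Depth came from 2966 single-transcript genes, where 52.9% to 65.0% of low values lay within 0.1 of a whole read (20% by chance). These depths are estimates, and no counting interval was derived from them. Coding sequences were the longest open reading frames of principal GENCODE M21 transcripts, and copies were searched with blastn 2.17.0 against all its transcripts.

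Named with values were, in each comparison, the 6 largest called rises and falls without overlap, the 5 most abundant members, stalk, X-linked, l-suffixed and selected members, up to 3 called genes per list by adjusted p, and the listed ribosomal proteins outside the pattern. Values of a few genes are not reported here. Alternatives covered pseudocount, filter, 5 other scalings, prior, libraries in the fit and a replicate block. Keeping the X and Y zeros was a further alternative. Centring on the family, the second total and leaving out IgE 3 with antigen 3 were added after seeing the data. Same-numbered libraries correlated at -0.33 to 0.35 in their deviations, not above 0.1 in every pair, so numbers were not taken to pair libraries.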

Additional observations from a re-analysis of the deposited data

How the results depend on the processing

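Pseudocounts of 0.1 and 0.5, a filter of 5 FPKM, no trend, median centring, trimmed mean scaling and the fit of 2 groups alone kept the direction of the family median in all 3 comparisons. Without a filter 1 member (Rps2) was called higher after IgE, where 8.93% of all tested genes were. Under quantile normalization 1 member was higher and 9 lower between antigen and IgE, 4 higher and 9 lower between IgE and untreated, and 3 higher and 17 lower between antigen and untreated, with medians of -0.033, -0.025 and -0.055. Rescaling to the same total gave 9 higher and 1 lower, 6 and 1, and 29 and 2, with medians of 0.066 and 0.099 in the antigen comparisons and 2687 and 2740 genes higher there. The total without short RNAs and sex-linked genes gave 1 higher and 2 lower, 4 higher and 1 lower, and 9 higher and 6 lower, with medians of -0.0056 and 0.0031 against IgE and untreated. Genes called then numbered 2394 higher and 5920 lower, and 2312 and 6221. Centred on the family, the splits were 1 and 2, 2 and 1, and 4 and 8, with 2077, 542 and 1819 genes higher and 6293 lower between antigen and untreated. The same without IgE 3 and antigen 3 gave 1 and 2, 6 and 3, and 4 and 8, with 2210, 625 and 1770 genes higher, and 4036 and 6829 lower after IgE and between antigen and untreated. Leaving out IgE 3 and antigen 3 on the deposited scale gave 18 members higher after IgE, where 19.9% of all tested genes were.

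Single libraries left out gave 34 to 61 members higher between antigen and IgE, 1 to 18 higher and 0 to 1 lower between IgE and untreated, and 52 to 70 higher and 0 to 1 lower between antigen and untreated. Of all tested genes 35.3% to 38.1%, 11.02% to 20.3% and 36.4% to 40.9% were higher in these settings. The shares lower were 34.0% to 37.6%, 9.37% to 19.8% and 33.3% to 37.3%. For all genes, 1020 to 2155 were lower after IgE. With the replicate number as a block, which does not pair the libraries, 51, 3 and 63 members were higher. Of all tested genes 37.1%, 14.6% and 38.25% were higher with the block. The cause of these shifts was not tested.

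Log2 changes of single members also turned sign. Under quantile normalization this held in antigen versus IgE, Rps3 -0.0061, Rplp1 -0.0047, Rps24 -0.11, Rps9 -0.075, Rpl39 -0.038, Rps27a -0.11, Rpl5 -0.13, Rpl11 -0.041, Rps6 -0.035, Rps19 -0.10, Rpl3 -0.083 and Rpl24 -0.033. In antigen versus untreated, Rplp2 -0.043, Rpl36a -0.062, Rpl39 -0.18, Rps27l -0.062, Rps27a -0.14, Rpl5 -0.27, Rpl11 -0.065, Rps6 -0.079, Rps14 -0.091, Rpl3 -0.11, Rpl13a -0.20 and Rpl24 -0.10. Under the total without short RNAs it held in antigen versus IgE, Rps26 -0.020, Rps24 -0.038, Rps9 -0.037, Rpl39 -0.0060, Rps27a -0.017, Rpl11 -0.027, Rps19 -0.0059, Rpl3 -0.055 and Rpl13a -0.027. In antigen versus untreated, Rplp2 -0.022, Rpl39 -0.078, Rps4x -0.024, Rps27a -0.043, Rpl5 -0.082, Rpl11 -0.026, Rps14 -0.012, Rpl3 -0.016, Rpl13a -0.10 and Rpl24 -0.015. Rescaling to the same total turned Rpl13a to -0.0064 between antigen and untreated. With the X and Y zeros kept as deposited, the changes were, in antigen versus IgE, Rpl36a -2.98, Rpl39 -3.04 and Rps4x -3.17. In antigen versus untreated, Rpl36a -2.91, Rpl39 -3.06 and Rps4x -3.20. Depth limits members under 10 FPKM, and the treatment of reads shared by copies limits members whose copies have rows.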

Other observations

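Genes that serve ribosomal proteins before or after they join the ribosome were followed as lists. Of 21 tested chaperones, import factors and members of the 5S-p53 checkpoint, 13 rose and 2 fell between antigen and IgE as deposited, and over the 6 scalings 7 to 13 rose and 2 to 7 fell. Of all tested genes 37.6% rose and 36.2% fell as deposited, and 22.0% to 37.6% and 36.2% to 54.4% over the scalings. Their median log2 change was 0.25, against 0.0071 for all tested genes. Mdm2, the ubiquitin ligase of p53 to which free Rpl5 and Rpl11 bind, was at 29.7 ± 0.589, 32.4 ± 1.13 and 67.4 ± 2.06 FPKM (SD, n = 3) in untreated, IgE and antigen libraries. Cdkn1a, a p53 target and cell cycle inhibitor, was at 21.3 ± 0.724, 28.9 ± 3.74 and 69.6 ± 3.74 FPKM. Both rises with antigen were called under all 6 scalings. The importin Ipo9 rose with IgE, from 14.7 ± 0.180 to 17.7 ± 0.335 FPKM, and fell to 12.1 ± 0.221 with antigen. With IgE alone 11 rose and 1 fell of the 21 (6 to 11 and 1 to 2 over the scalings, all genes 15.9% and 14.2% as deposited), with the smallest adjusted p for the importins Ipo5 (0.39), Ipo9 (0.25) and Kpnb1 (0.23).

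Of 15 ribosome rescue and quality control genes, 9 rose and 2 fell between antigen and IgE (5 to 9 and 1 to 5 over the scalings, median 0.18, all genes 37.6% and 36.2% as deposited). Tcf25, Gtpbp2 and Usp9x changed 1.41-, 1.45- and 1.37-fold, with n = 2 in the antigen group for the X-linked Usp9x. After IgE alone Gtpbp2 fell by 0.33 on the log2 scale, while Edf1 (0.18) and Pelo (0.28) rose. Of 15 regulators of ribosomal protein and ribosomal RNA gene transcription, 11 rose and 1 fell with antigen (7 to 11 and 1 to 2 over the scalings, median 0.48, all genes 37.6% and 36.2% as deposited). Gabpb1, Ubtf and Yy1 changed 1.61-, 1.60- and 1.56-fold. Between IgE and untreated, Myc was at 13.2 ± 2.83 against 9.97 ± 0.324 FPKM (0.36, adjusted p = 0.0306), with IgE 3 at 16.5 FPKM and the other IgE libraries at 11.4 and 11.8, and Rrn3 rose by 0.11; over the scalings 0 to 2 of these 15 were called higher, where 11.6% to 15.9% of all tested genes were.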
